A study of Mus musculus with 2 samples.

Results

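The region described here is a window of 320 kb on mouse chromosome 5 (mm9), taken as Rbpj and its flank, which begins 42.4 kb before the first peak of the chain described below. It held 18 of the 8884 peaks of a REV-ERBα ChIP-seq experiment, counting each peak whose midpoint lay inside. Of these 18, 8 formed a chain in which each midpoint lay at most 10 kb from the next, and the other 10 were spread over the rest of the window. The window was chosen because this chain had the most peaks in the list, so the number and spacing of its peaks describe the choice and were not tested.

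The cells were wild-type mouse T helper 17 (Th17) cells, CD4 T cells that secrete interleukin-17, kept in primary culture. The study has 1 ChIP sample, made with an antibody to REV-ERBα, and 1 input DNA sample from the same kind of cells. The labels give neither strain, age nor the number of animals. With no second ChIP sample there is no replicate check, and the 95% intervals below (exact Poisson for tags, exact binomial for ChIP over input) cover counting error only. The identity of the cells could not be checked against marker genes, since a peak list measures no expression.

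RBPJ is the DNA-binding protein of the Notch pathway. When a Notch receptor is cleaved, its intracellular part joins RBPJ and a Mastermind protein to activate target genes, and without Notch RBPJ can hold corepressors at the same sites. In Th17 cells RBPJ is known for promoting the interleukin-23 receptor gene. REV-ERBα, encoded by Nr1d1, is a heme-binding nuclear receptor of the circadian clock that recruits the NCoR and HDAC3 corepressors, and it shares its DNA element with RORγt, the factor that defines Th17 cells. In the RefSeq annotation of GRCm38.p6, the protein-coding genes in order along the chromosome are Sel1l3, Smim20, Rbpj (gene ID 19664), Cckar, Tbc1d19 and Stim2, and a long non-coding RNA gene, Gm40304, lies between Smim20 and Rbpj. This annotation is of another build than the peaks. Which peaks fall in the promoter, introns or flank of Rbpj was therefore not determined, and the DNA sequences of the peaks were not analysed here.

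The chain ran from 53792424 to 53821655, a span of 29.2 kb or 9.13% of the window, and held 44.4% of the window's peaks. Its density was 2.74 peaks per 10 kb, against 0.344 in the rest of the window and 0.0350 over the whole list. It also came first among the window's peaks. No peak was listed for 493 kb before its first peak, and the first peak beyond the window lay 119.6 kb after the last. The window's 18 peaks thus spanned 264 kb, with the chain first and long stretches free of listed peaks on both sides. Gaps among them reached 71246 bp, against a list median of 50.8 kb. The 18 were grouped by the window and by no rule of spacing. When the genome was divided into 7954 stretches of 320 kb in register with the window, the mean was 1.12 peaks and the median 0. The highest count was 19, and 4 stretches, this one included, held at least 18. The grid was set to the window, which was chosen for its chain, while other stretches could split a group of peaks. The window's count was thus favoured by its choice and was not tested.

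**Figure D1:**
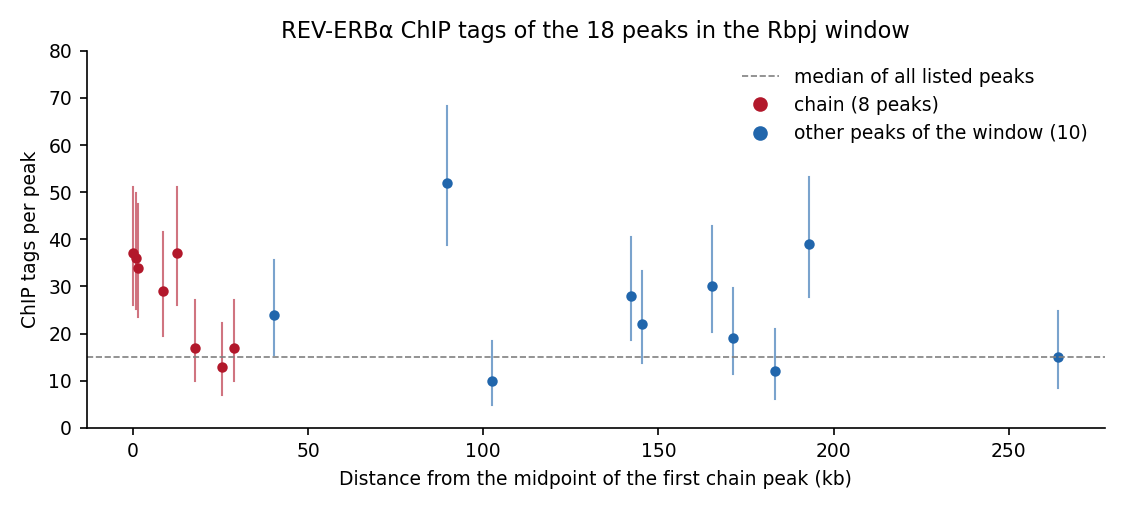
ChIP tags of each of the 18 peaks (points, with 95% Poisson intervals) against the distance in kb from the midpoint of the first chain peak. The first 5 chain peaks lie at 29 to 37 tags and the last 3 at 13 to 17, near the median of all listed peaks (15, dashed line), while the highest peak of the window, with 52 tags, lies 89.5 kb from the first chain peak.

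The chain was not evenly spaced. Its first 3 peaks formed a tight group, with midpoints 882 and 702 bp apart and 576 and 396 bp of DNA between their edges. The caller allowed no peaks closer than 612 bp. Only 2 runs of at least 3 peaks with every gap under 1000 bp were found in the whole list, and this was one of them. The next gaps along the chain were 6995, 4081, 5196, 7482 and 3587 bp. The next peak of the window followed after 11261 bp, just beyond the 10 kb limit, and the largest gap inside the chain was 7482 bp. Among the other 10 peaks the 9 gaps ran from 3143 to 71246 bp with a median of 12888 bp, and 3 of them were under 10 kb. The gap lengths of the chain and of the other peaks thus overlapped, and short spacing within the window was not limited to the chain.

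**Figure D2:**
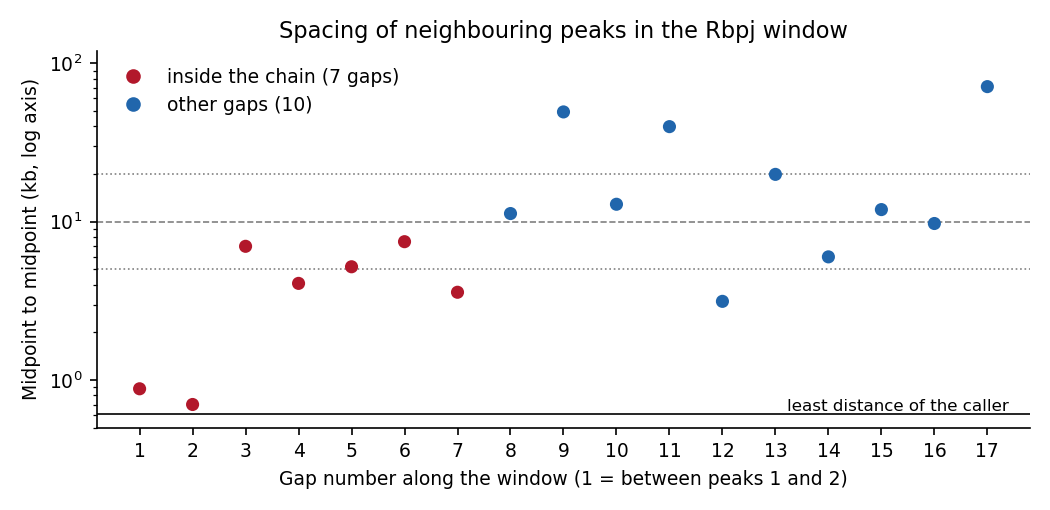
Distance between neighbouring midpoints (kb, log axis) for the 17 gaps of the window, in order. The 7 gaps inside the chain lie between 702 and 7482 bp, and the dashed line at 10 kb and dotted lines at 5 and 20 kb show where other limits would divide the window.

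By tag number the chain fell into a strong and a weak part, a division made after the values were seen. Peak 1 (53792424 to 53792730) had 37 tags (26.1 to 51.0), peak 2 (53793306 to 53793612) had 36 (25.2 to 49.8) and peak 3 (53794008 to 53794314) had 34 (23.5 to 47.5). These 3 peaks of the tight group did not differ beyond their counting error. Peak 4 (53801003 to 53801309) had 29 tags (19.4 to 41.6) and peak 5 (53805084 to 53805390) had 37 (26.1 to 51.0). Peaks 1 to 5 held 173 of the 220 tags of the chain. Peak 6 (53810280 to 53810586) and peak 8 (53821349 to 53821655) had 17 tags each (9.90 to 27.2), and peak 7 (53817762 to 53818068) had 13 (6.92 to 22.2). No peak of the weak part reached the lowest count of the strong part, although single intervals overlap.

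The caller considered at most 1 tag per bp, and its score gave the same order of the parts. The score is not simply a capped count of the peak's tags, since it reached 1.33 times the tags within the list. The scores of peaks 1 to 8 were 33, 31, 29, 24, 31, 11, 12 and 15. The score of peak 6 was low for its tags, at 0.647 of the count, and 97 of the 8884 peaks had a ratio as low or lower. Its clonal fold, the caller's measure of tags piled on few positions, was 1.37. Only 24 peaks of the list reached that value, and the other 7 chain peaks lay between 0.90 and 1.01. The authors' limit for this measure was 2.

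Input tags under the chain were unevenly divided. In scaled input tags, which the authors brought to the depth of the ChIP library, peaks 1 to 8 had 4.7, 1.9, 0.5, 2.8, 6.6, 0.5, 1.9 and 3.8. These correspond to 5, 2, 0, 3, 7, 0, 2 and 4 whole input tags. The value of 0.5 stands for no tag. Peak 5 had the highest input of the window and was 5.59-fold over input (2.46 to 14.9). Peak 1 was 7.83-fold (3.07 to 25.5) and peak 2 was 19.04-fold (4.90 to 163). Peak 3, with no input tag, was 12.0-fold over a floor of 3 input tags, and its interval over input ran from 9.23-fold with no upper limit. Peak 6, also with no input tag, was 5.99-fold over that floor, with an interval from 4.37-fold with no upper limit. Peak 4 was 10.2-fold (3.17 to 52.5), peak 7 was 6.88-fold (1.56 to 62.8) and peak 8 was 4.50-fold (1.47 to 18.4). The intervals of the single peaks overlap throughout, and differences in enrichment between them were not tested.

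The 10 other peaks of the window covered a wider range of tags than the chain, from 10 to 52. The peak at 53881935 to 53882241 had 52 tags (38.8 to 68.2), a score of 47 and 1 input tag, and was 55.0-fold over input (9.45 to 2214). It had the highest tag count of the 470 peaks on chromosome 5 and ranked 17 in the list. The peak at 53985368 to 53985674 followed with 39 tags (27.7 to 53.3), a score of 31 and 0.9 scaled input tags. Both had more tags than any chain peak, but their intervals overlap those of the strong chain peaks. The first had its nearest listed peak 12.9 kb away. The second lay 9744 bp from the peak at 53975624 and formed a separate pair with it.

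Another 4 peaks had intermediate counts. The peak at 53957696 to 53958002 had 30 tags, a score of 23 and 1.9 scaled input tags. The peak at 53934653 to 53934959 had 28 tags, a score of 24 and 2.8 scaled input tags. The peak at 53832610 to 53832916, the one that followed the chain, had 24 tags, a score of 22 and 0.9 scaled input tags. These lay between the strong and the weak part of the chain or overlapped the strong part. The peak at 53937796 to 53938102 had 22 tags, a score of 19 and 1.9 scaled input tags, and lay 3143 bp from the peak of 28 tags.

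The last 4 peaks had the fewest tags of these 10, and each had 1.9 scaled input tags. The peak at 53963696 to 53964002 had 19 tags and a score of 18, near the upper quartile of the list (20 tags and a score of 17). The others did not exceed the list median of 15 tags. The peak at 54056614 to 54056920, the last of the window, had 15 tags and a score of 14. The peak at 53975624 to 53975930 had 12 tags and a score of 12. The peak at 53894823 to 53895129 had 10 tags (4.80 to 18.4) and a score of 11, the fewest tags of the window.

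Set side by side, the chain and the other peaks of the window differed little in tags and input. The median was 31.5 tags in the chain and 23 in the others, with ranges of 13 to 37 and 10 to 52 that overlap. The median score was 26.5 against 20.5. The chain held 23 input tags, or 2.88 per peak (1.82 to 4.31), and the others held 18, or 1.8 per peak (1.07 to 2.84). Listed peaks outside the window, without the single region above 1000 tags, averaged 1.79 (1.76 to 1.82). The chain lay above that average and its interval just clear of it, as did that of peaks 1 to 5 alone, with 3.4 per peak (1.98 to 5.44). Those listed peaks had a median of only 15 tags, however, and the 4-fold filter over input let stronger peaks hold more input. Listed peaks of 15 tags held at most 3 input tags, and those of 37 tags up to 8. Input at equal ChIP tags was not compared, so the chain's higher input was not separated from its higher tag numbers. The 7 input tags of peak 5 were close to the highest number among those listed peaks, 8. Over all tags together the chain was 10.1-fold over input (6.57 to 16.3) and the others 14.8-fold (9.14 to 25.3). These intervals overlap, and a difference in enrichment between the chain and the others was not tested. Input ranged more widely in the chain, from 0 to 7 tags, than in the others, from 1 to 3. The others include peaks of 15 tags or fewer, in which the 4-fold filter allows little input, so these ranges were partly set by the filter.

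Counted against the whole list, 9 of the 18 peaks (5 of the chain, 4 of the others) had at least 27 tags, which 10% of all listed peaks reached. At least 8-fold over input was listed for 11 of the 18, 4 in the chain and 7 among the others, against 61.5% of the list. The 4 in the chain include peak 6, which stays under 8-fold at the floor of 3 input tags. No input tag was found for 2 of the 18, both in the chain, against 16.8% of the list. The window was chosen from the same list, so these shares are given as a description.

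**Figure D3:**
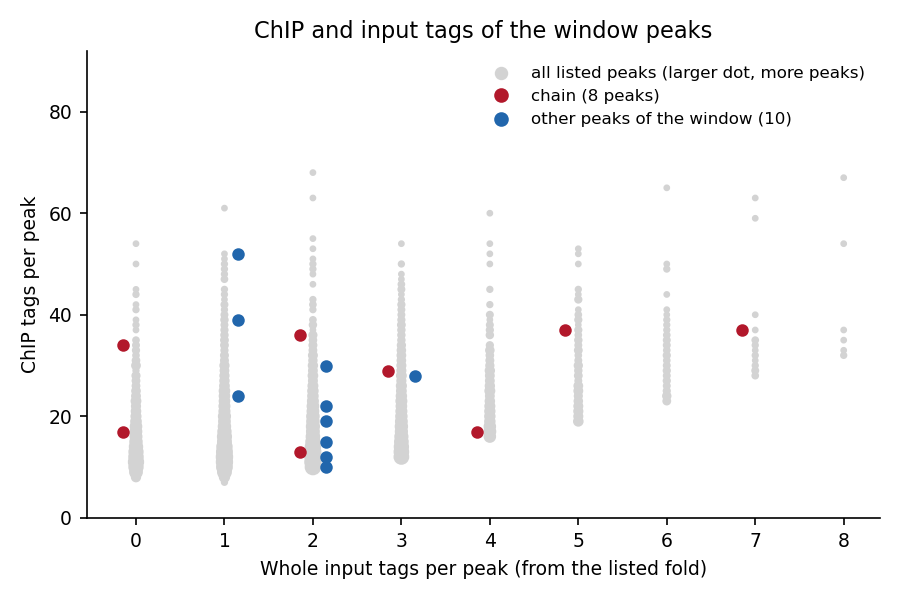
ChIP tags against whole input tags per peak for the 8 chain peaks, the 10 other window peaks and all listed peaks (grey, without the single region above 1000 tags, larger dots for more peaks). The chain peaks are spread over 0 to 7 input tags and the others over 1 to 3, with overlapping ChIP tags.

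The ChIP tags around the peaks were also compared. For each peak the authors list a fold over the local region of 10000 bp, from which the number of ChIP tags in that region outside the peak (9694 bp) was recovered. It was 218, 216, 216, 217 and 202 for peaks 1 to 5, and 85, 94 and 89 for peaks 6 to 8. The median over the list was 61, and the caller's average for the library was 26.3 tags in the same length. At least 200 such tags were found around these 5 window peaks and no other, and around 0.574% of listed peaks. The other 10 window peaks ranged from 40 to 193 with a median of 106. High local counts also occurred there: 193 and 161 tags around the pair at 53934653 and 53937796, 183 at 53985368 and 145 at 53881935. At least 127 tags, the 95th percentile of the list, were found around 9 of the 18 peaks against 5.11% of the list. A listed peak had to exceed its local region 4-fold, however. The 202 local tags of peak 5 thus required 26 tags in the peak, more than peaks 6 to 8 (13 to 17) or a median listed peak (15) had. That peaks 6 to 8 lay below peaks 1 to 5 was therefore fixed by the filter, and the shares of the list were partly so.

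Neighbouring peaks accounted for only part of the local tags. If the region is read as 5000 bp to each side of the midpoint, other listed peaks held 70 of the 218 tags around peak 1, 37 of the 217 around peak 4 and 29 of the 202 around peak 5. The remaining 148, 180 and 173 tags lay outside listed peaks, where the list median was 59. Outside listed peaks, peaks 1 to 5 had 143 to 180 tags, peaks 6 to 8 had 76 to 85 and the other 10 window peaks had 40 to 183. The peak at 53985368 had 183, that at 53934653 had 171 and that at 53881935 had 145, as many as around the strong part of the chain. With listed neighbours left out, the strong part therefore no longer stood above all other peaks of the window. Close neighbours are what the chain was chosen for, so their share of the local tags follows from that choice. The regions around peaks 1 to 4 overlap, so their values are not separate measurements. Those around peaks 1 and 5, 12660 bp apart, do not overlap. With the peaks included they held 255 (225 to 288) and 239 (210 to 271) tags, 9.40 and 8.81 times the library average of 27.1 per 10 kb. The 5 listed peaks made up 35.0% of these 494 tags. The 10 kb around peak 8 held 106 tags (86.8 to 128), 3.91 times the average, and its interval lies below those of peaks 1 and 5. With its 17 tags peak 8 could not have been listed at the local counts of peaks 1 and 5, so its lower place was also fixed by the filter. Input tags of the surrounding regions are not in the list, so the part of input DNA in these local counts was not tested.

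**Figure D4:**
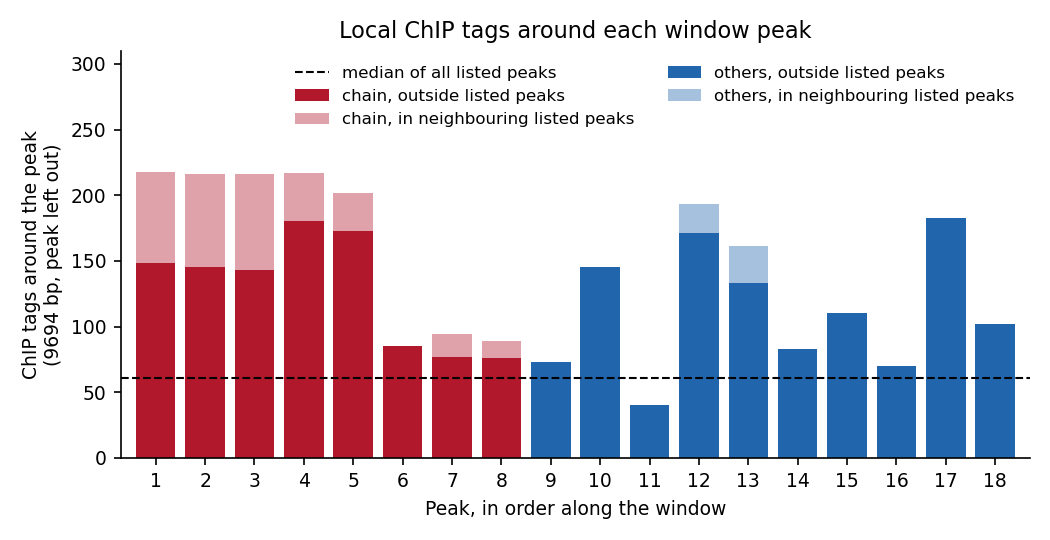
ChIP tags in the 9694 bp around each of the 18 peaks, in order along the window, divided into tags outside listed peaks (full colour) and tags in neighbouring listed peaks (pale). Peaks 1 to 5 stand at 202 to 218, peaks 6 to 8 at 85 to 94 and the other 10 at 40 to 193, with the median of all listed peaks (61) as a dashed line.

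These local counts set what could be listed. A peak had to exceed its local region 4-fold, so that at least 28 tags were needed at the positions of peaks 1 to 4 and 26 at peak 5, but only 11 or 12 at peaks 6 to 8. A site of 13 to 17 tags could thus be listed in the weak part of the chain and not in the strong part. Peak 4, with 29 tags, was 4.23-fold over its local region, close to the limit. The fold over the local region was 5.38, 5.28, 4.99, 4.23, 5.80, 6.34, 4.38 and 6.05 for peaks 1 to 8, against a list median of 7.78. Its median was 5.33 in the chain and 6.11 in the other window peaks, of which the highest were 11.5 at 53957696, 11.4 at 53881935 and 10.4 at 53832610. All chain peaks lay below these 3 values, while the other 7 ranged from 4.33 to 7.92 and overlapped the chain. By this measure the chain peaks stood less clear of their surroundings than most listed peaks. The measure counts listed neighbours as surroundings, however, and close neighbours are what the chain was chosen for. The fold with listed neighbours left out was not compared with the list.

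The list held 10 more chains of at least 5 peaks, each with 5. They spanned 17.1 to 27.9 kb and held 72 to 131 tags, or 14.4 to 26.2 tags per peak. The chain in the Rbpj window, with 29.2 kb, 220 tags and 27.5 tags per peak, was the longest and had the most tags. It was chosen for its 8 peaks, against 5 in each other chain, so a greater span and tag total were favoured by that choice. Per peak, its 27.5 tags lay just above the highest of the others, 26.2. The chain was not the densest: its 2.74 peaks per 10 kb ranked 4 of 11, within the 1.79 to 2.92 of the others. Its median of 209 local tags ranked 2, behind a chain on chromosome 8 (89376379 to 89395021) with 217. High tag numbers around closely spaced peaks were thus also found at another chain. The number 8 changed with the limits. With the score limited to at least 13, the median of the list, peaks 1 to 5 were left as the chain. With only peaks at least 8-fold over input, the chain held 4 peaks, which were peaks 2, 3, 4 and 6.

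**Figure D5:**
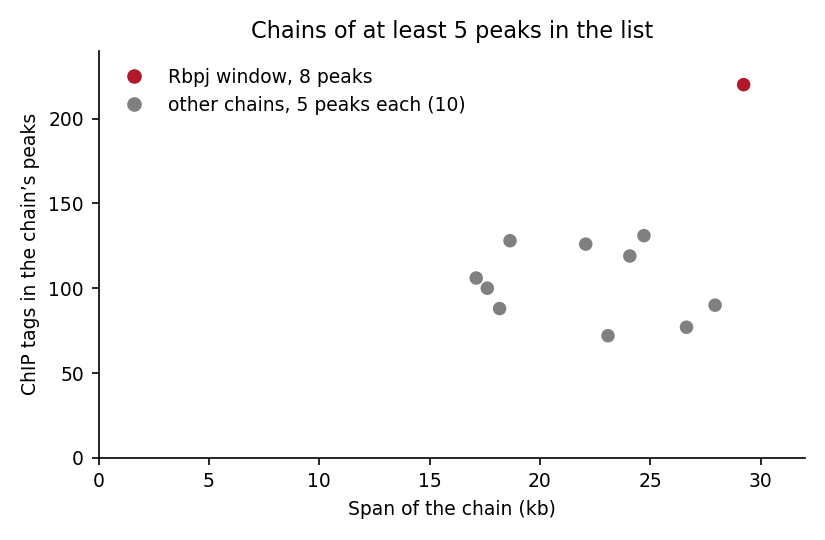
Total ChIP tags in the peaks of a chain against its span (kb) for the 11 chains of at least 5 peaks. The chain in the Rbpj window (220 tags, 29.2 kb) lies above the 10 chains of 5 peaks, which hold 72 to 131 tags over 17.1 to 27.9 kb. The totals compare 8 peaks with 5, and the chain was chosen for its number of peaks.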

How the data were processed

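Only the deposited REV-ERBα peak list was used. Per the submitters' processing notes, the tools were CASAVA 1.8.2, Bowtie and HOMER and the build was mm9; for Bowtie and HOMER no version is stated in the labels or headers. Per the file headers, the authors called peaks of 306 bp with findPeaks on the ChIP library (6390234 tags) against input, with a tag threshold of 9 and filters of 4-fold and p = 1e-04 over input and over the local 10000 bp.

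Total tags are deposited counts. The normalized tag count and the input tags are a signal that the authors scaled, the first to 10000000 tags and the second to the ChIP depth. The deposited fold values are a linear ratio. The score is the caller's, per the file headers. The deposited p-values come from the caller's Poisson model and are not used further.

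Whole input tags came from tags over fold, in steps of 0.945; the 7392 peaks with input lay within a relative 0.00115 of whole steps. Local tags came from tags over local fold, in steps of 306/9694. All 8875 peaks that could be judged lay on whole tags within the rounding of the fold plus 0.02 tags (a tolerance of at most 0.3, median 0.0592). Python 3.11.15, numpy 2.4.6, pandas 2.3.3, scipy 1.17.1 and matplotlib 3.10.9 were used. The steps were tested on simulated peaks.

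No test was made, since peaks of 1 library are not replicates. Every peak of the window is named. The window, the chain and the lists were chosen with earlier results of these data known. Counts of peaks near other Notch genes and motif searches, planned for mm9 annotation and sequence, were not run.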

Additional observations from a re-analysis of the deposited data

How the results depend on the processing

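The chain of 8 peaks and 29.2 kb became 3 peaks over 1.89 kb with neighbours at most 5 kb apart, and 9 over 40.5 kb at 20 kb. It became 4 peaks over 17.3 kb among those at least 8-fold over input, 5 over 13.0 kb with the score at or above the median, and 4 over 13.0 kb without peaks lacking an input tag. Chains with more peaks were then found elsewhere in the list under 3 of these 5 alternatives: 5 at 5 kb, 2 at 20 kb and 7 without peaks lacking an input tag. Under the others the chain was tied for the most peaks. It was 1 of 10 chains of 4 peaks at 8-fold and 1 of 3 chains of 5 peaks with the score limit. The window kept 11 of 18 peaks at 8-fold. Density relative to the rest of the window, 7.96 times, was 33.7 times at 5 kb and 13.2 times with the score limit. The ratio of median input, chain over others, was 1.24, reversed to 0.632 at 8-fold, was 1 with the limits of 5 and 20 kb, and was 1.97 without peaks lacking an input tag. Fewer peaks enter under each stricter filter; the cause of the input changes was not tested. The median tags and score stayed higher in the chain and the median local fold lower under these 5 alternatives, with tag ratios from 1.12 to 1.78. Some combinations, those of density with the 5 kb, score and input alternatives among them, were chosen after seeing the data. No paired analysis was possible because there is 1 ChIP and 1 input sample, and no sample could be left out. With 6390234 tags and a threshold of 9, a stretch with no listed peak may still be bound.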
